A study of Mus musculus with 22 samples.

Results

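The 10 genes followed here were taken as markers of the dorsoventral axis of the mouse striatum, and their levels were measured across 22 bulk RNA-seq libraries. Of these, Reln, Coch, Gpr155 and Hpca had been listed as dorsal genes, and 6 others, Calb2, Hap1, Wfs1, Crym, Arhgap36 and Zcchc12, as ventral genes. The 10 genes were given by name and matched through their Ensembl identifiers to 10 of the 23119 genes in the table. They were listed with their levels in dorsal and ventral libraries in view, so the difference between regions is given here as a description with no test.

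The libraries came from male C57BL/6J mice. Mice in the oxycodone groups had infused themselves with the opioid analgesic oxycodone, at 0.25 mg/kg per infusion for 4 h a day over 14 days, and yoked mice in the saline groups received saline on the same schedule. Dorsal striatum gave 5 oxycodone and 5 saline libraries, and ventral striatum gave 6 oxycodone and 6 saline libraries. The labels do not say which libraries came from the same mouse or whether tissue was pooled, so the spread between libraries may be partly technical. In each dorsal group 2 libraries share a title number, and if they came from 1 mouse there would be 4 mice a group. Summing the libraries of each such pair left no member with an edgeR adjusted p below 0.05 for oxycodone against saline in dorsal striatum. In bulk tissue, fewer cells of a type and less RNA per cell cannot be told apart.

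The striatum is the main input structure of the basal ganglia. Most of its neurons are medium spiny neurons of the direct pathway, marked by the dopamine receptor gene Drd1, or of the indirect pathway, marked by Drd2. Its dorsal part is tied to action selection and habit, and its ventral part, which includes the nucleus accumbens, to reward and motivation. Medium spiny neurons of both pathways change gradually in gene expression from dorsal to ventral, and drug reward is often studied along this axis.

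The dorsal genes code for proteins of different kinds. Reln codes for reelin, a secreted glycoprotein that positions migrating neurons and acts at synapses. Coch codes for cochlin, a secreted matrix protein best known from the inner ear. Gpr155 codes for a lysosomal cholesterol sensor that acts on the growth regulator mTORC1, and Hpca for hippocalcin, a neuronal calcium sensor. Among the ventral genes, Calb2 codes for calretinin, a calcium buffer that marks a class of interneurons. Hap1 codes for huntingtin-associated protein 1, which serves transport inside neurons, and Wfs1 for wolframin, a membrane protein of the endoplasmic reticulum. Crym codes for mu-crystallin, which binds thyroid hormone in the cytosol. Arhgap36 codes for an inhibitor of protein kinase A that activates hedgehog signalling, and Zcchc12 for a zinc finger co-activator of BMP signalling.

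In GENCODE M21 on GRCm38 the dorsal genes lay on separate chromosomes, Reln at chr5:21884454-22344702, Coch at chr12:51593341-51605771, Gpr155 at chr2:73341506-73386572 and Hpca at chr4:129111570-129122036. Of the ventral genes, Calb2 lay at chr8:110137502-110168210, Hap1 at chr11:100347327-100356128, Wfs1 at chr5:36966104-36989205, Crym at chr7:120186380-120202111, Arhgap36 at chrX:49463945-49500244 and Zcchc12 at chrX:36195904-36199158. Counts refer to whole genes. Exons of Reln, Gpr155 and Hpca overlap exons of genes on the opposite strand (Gm10475 for Reln, Gm13703 and Gm13709 for Gpr155, Tmem54 for Hpca). The library kit keeps strand, but the strand setting of the counting is not given in the sources used here, so these 3 genes could include reads of their partners.

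Because genes of each list are set against each other throughout, the 250 bases before the transcription start are shown for the 5 members whose window in the RefSeq promoter table lies outside the annotated gene, in transcript direction 5′ to 3′. Capitals mark GC boxes (GGGCGG) and E-boxes (CACGTG), searched on both strands. The TATA box (TATAAA) was searched in the same way and not found in these windows. The windows are chr5:22344706-22344955 on the minus strand for Reln, chr12:51593091-51593340 on the plus strand for Coch, chr11:100356142-100356391 on the minus strand for Hap1, chrX:49463695-49463944 on the plus strand for Arhgap36 and chrX:36195654-36195903 on the plus strand for Zcchc12, all on GRCm38.p6.

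Reln: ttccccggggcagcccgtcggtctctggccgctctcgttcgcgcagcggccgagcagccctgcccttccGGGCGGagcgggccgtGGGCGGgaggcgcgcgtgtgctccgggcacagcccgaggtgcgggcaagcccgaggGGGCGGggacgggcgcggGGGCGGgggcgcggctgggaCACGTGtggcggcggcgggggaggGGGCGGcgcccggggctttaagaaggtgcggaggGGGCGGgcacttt
Coch: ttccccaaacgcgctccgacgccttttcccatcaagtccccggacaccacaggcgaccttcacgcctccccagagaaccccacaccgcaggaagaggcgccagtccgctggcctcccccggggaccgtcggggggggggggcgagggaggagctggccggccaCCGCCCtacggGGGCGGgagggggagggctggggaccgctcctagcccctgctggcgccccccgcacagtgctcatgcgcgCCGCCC
Hap1: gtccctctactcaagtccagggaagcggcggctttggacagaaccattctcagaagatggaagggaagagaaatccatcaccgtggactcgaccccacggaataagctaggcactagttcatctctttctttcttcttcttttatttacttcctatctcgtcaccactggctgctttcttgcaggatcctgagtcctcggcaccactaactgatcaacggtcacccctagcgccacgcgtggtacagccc
Arhgap36: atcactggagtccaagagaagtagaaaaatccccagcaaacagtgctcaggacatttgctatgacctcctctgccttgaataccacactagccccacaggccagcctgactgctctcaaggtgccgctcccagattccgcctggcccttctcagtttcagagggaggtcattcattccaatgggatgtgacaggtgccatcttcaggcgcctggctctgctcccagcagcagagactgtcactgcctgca
Zcchc12: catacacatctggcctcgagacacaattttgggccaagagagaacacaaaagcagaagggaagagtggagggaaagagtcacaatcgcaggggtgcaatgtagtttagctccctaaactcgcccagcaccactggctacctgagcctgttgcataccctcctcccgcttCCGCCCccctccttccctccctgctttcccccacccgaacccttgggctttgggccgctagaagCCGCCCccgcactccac

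GC content of the windows varied among genes of both lists. It was 80.0% for Reln and 74.8% for Coch, against 52.0% for Hap1, 55.2% for Arhgap36 and 58.8% for Zcchc12, and the median over all 32851 promoter windows of this length was 52.4%. Reln held 37 CpG sites, 6 GC boxes and 1 E-box, and Coch 24 CpG sites and 3 GC boxes. Zcchc12 held 9 CpG sites and 2 GC boxes, Hap1 11 CpG sites and Arhgap36 3, with no box in either. Of all windows, 32.7% held a GC box, 6.02% an E-box and 12.4% a TATA box. Windows that lie within an annotated gene, not printed, had 70.4% GC for Gpr155, 51.2% to 71.2% for the 3 windows of Hpca and 69.6% for the ventral gene Wfs1. The lists thus overlapped in GC content, and these matches describe letters only.

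A pair of ventral libraries stood furthest apart from the others. They are replicate 6 of the oxycodone ventral group and replicate 6 of the saline ventral group, and results of the ventral groups are given with and without them where their values moved. Oxycodone ventral replicate 6 had 322 CPM of Drd1 and 335 CPM of Drd2, against 157 to 228 and 113 to 181 CPM in the other 5 oxycodone ventral libraries. It also had 1699 CPM of the choroid plexus gene Ttr, against 1.45 to 30.1 CPM in those 5 libraries. Dorsal libraries held 52.1 to 3185 CPM of Ttr with oxycodone and 339 to 3453 CPM with saline, so this value lay within the dorsal range. Saline ventral replicate 6 went against its striatal label, with 5.76 CPM of Drd1 and 3.68 CPM of Drd2, against 149 to 196 and 112 to 142 CPM in the other 5 saline ventral libraries. Its level of Slc17a7, the vesicular glutamate transporter of cortical neurons, was 991 CPM, against 37.1 to 281 CPM in those 5. In the other 20 libraries Drd1 lay between 149 and 538 CPM and Drd2 between 112 and 181 CPM, so Drd2 in oxycodone ventral replicate 6 was above all of them. So was its Ppp1r1b, the gene of the medium spiny neuron phosphatase inhibitor DARPP-32, at 1012 CPM against at most 493 CPM. Oxycodone ventral replicate 1 also differed from replicates 2 to 5 of its group, by 18.9 to 28.52 in chi-square per degree of freedom. Pairs among replicates 2 to 5 differed by 4.75 to 11.14, and replicate 6 differed from them by 30.53 to 33.67. Replicate 1 stays in all results given without the sixth libraries, so those groups are not uniform.

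Region also went with the sequencing. Totals ran from 11314079 to 21921963 counts in dorsal libraries and from 8408829 to 11000345 in ventral ones. The mitochondrial share was 2.93% to 4.12% of counts for dorsal libraries and 5.98% to 9.25% for ventral ones, and the labels give a lane only for ventral libraries. The share of 9.25% was that of oxycodone ventral replicate 6, and the other ventral libraries had at most 7.12%. Whatever set the libraries of the regions apart in handling cannot be told apart from region. Levels are given as TMM-scaled counts relative to the library total (CPM), for dorsal groups as all 5 values in the order of replicates 1 to 5.

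**Figure D1:**
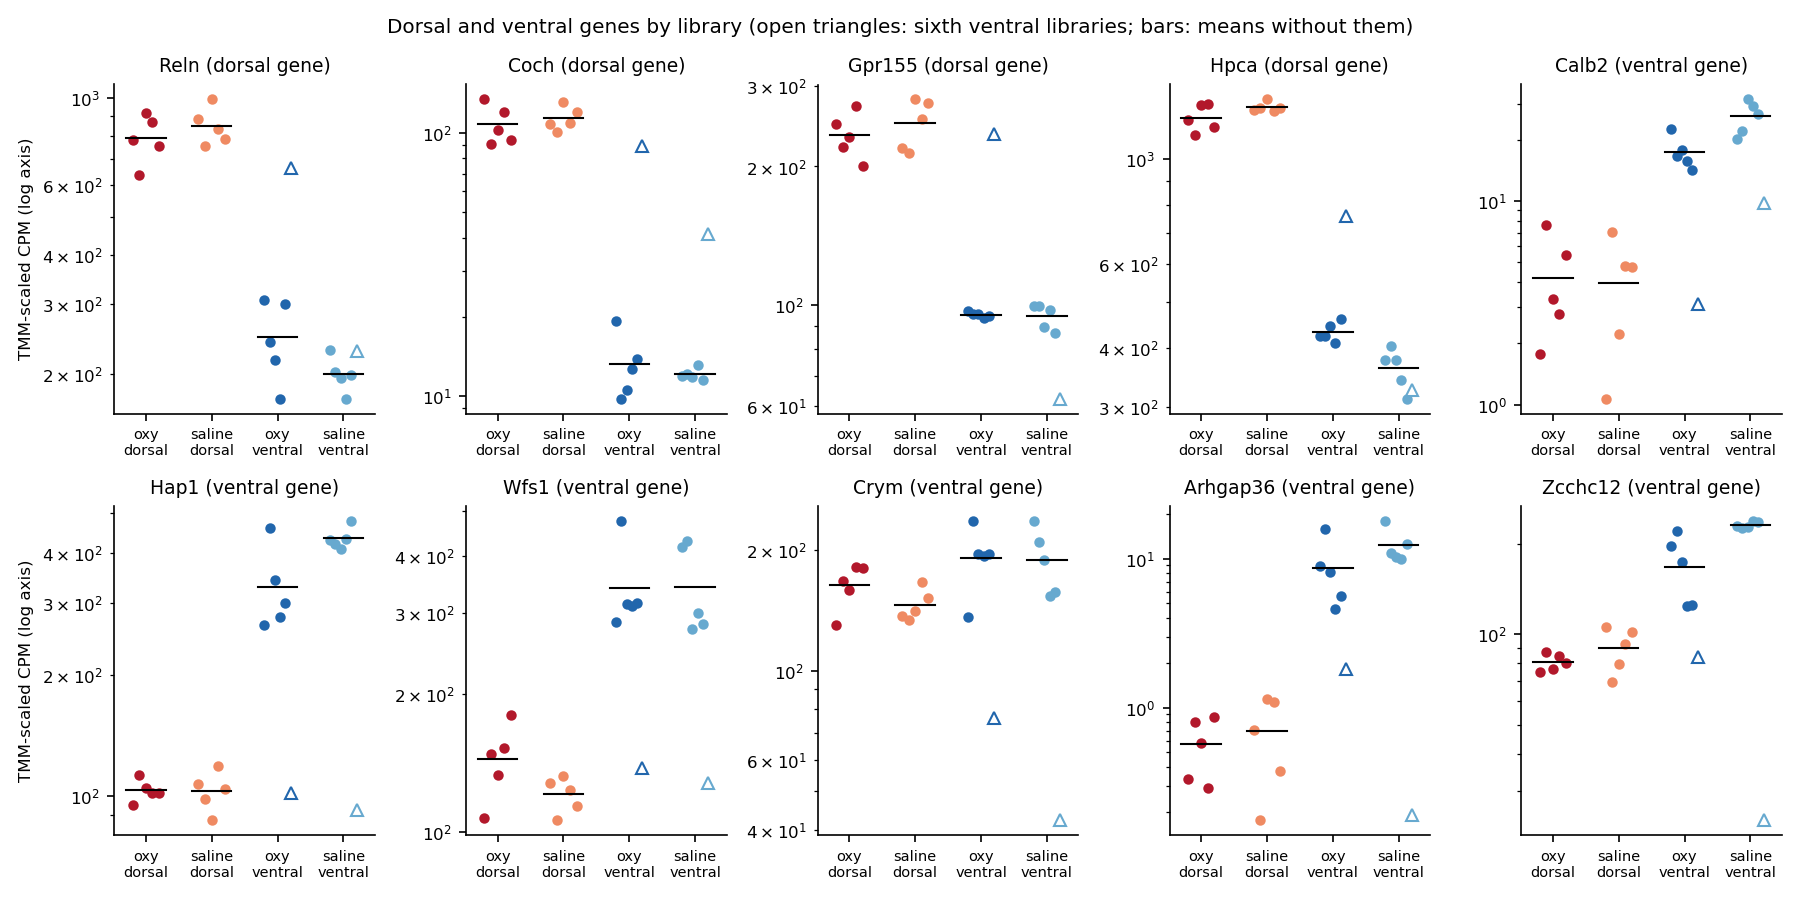
TMM-scaled CPM (log axis) of the 10 genes in each library, by group, with oxycodone left of saline and dorsal left of ventral. Filled circles are libraries, open triangles are the sixth ventral libraries, and bars are group means without them. The 4 dorsal genes lie higher in the dorsal libraries than in all ventral circles, 5 of the 6 ventral genes lie lower, and Crym overlaps.

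In saline libraries without the sixth, the dorsal mean of the 4 dorsal genes was 2.64 to 9.43 times the ventral mean, and that of the 6 ventral genes was 1.29-fold to 17.6-fold lower than the ventral mean. The genes of each list kept this order in both treatments, with Crym the weakest.

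Of the dorsal genes, Reln had 780, 636, 916, 868 and 757 CPM in oxycodone dorsal libraries and 886, 756, 991, 832 and 785 CPM in saline dorsal libraries. Its lowest, median and highest values were 173, 270 and 663 CPM in oxycodone ventral libraries and 173, 201 and 230 CPM in saline ventral libraries. The value of 663 CPM belongs to the sixth oxycodone library and was the only ventral value inside the dorsal range, and the other 5 oxycodone libraries reached at most 307 CPM. In saline libraries Reln averaged 850 ± 93.0 CPM in dorsal striatum and 205 ± 21.6 CPM in ventral striatum (SD, n = 5 and 6), a log2 difference of 2.05 (SE 0.24), and without the sixth library 2.08 (SE 0.13).

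Coch differed most of the 4 dorsal genes. It had 134, 91.0, 103, 120 and 93.7 CPM in oxycodone dorsal libraries and 108, 101, 131, 109 and 120 CPM in saline dorsal libraries. In ventral striatum the lowest, median and highest values were 9.80, 13.3 and 89.2 CPM with oxycodone and 11.5, 12.0 and 41.4 CPM with saline. Both ventral maxima are the sixth libraries. The saline libraries other than the sixth lay within 11.5 to 13.2 CPM, and the dorsal level in saline libraries was 9.43 times theirs (log2 difference 3.23, SE 0.14, and 2.74, SE 0.51, with the sixth).

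Gpr155 had 248, 221, 232, 271 and 200 CPM in oxycodone dorsal libraries and 220, 214, 280, 254 and 275 CPM in saline dorsal libraries. In the oxycodone ventral group, 5 libraries held 93.5 to 96.7 CPM and the sixth 236 CPM. Its coefficient of variation there was 48.5%, and without the sixth library 1.28%, the lowest of the 10 members. In the saline ventral group, 5 libraries held 86.6 to 99.2 CPM and the sixth, below all of them, 62.4 CPM. The dorsal mean in saline libraries was 2.80 times the ventral one, and 2.64 times without the sixth library.

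Hpca had the highest level per kilobase of exon of the 10 genes in both regions. It had 1214, 1127, 1304, 1310 and 1173 CPM in oxycodone dorsal libraries and 1273, 1282, 1339, 1263 and 1283 CPM in saline dorsal libraries. The lowest, median and highest ventral values were 408, 434 and 758 CPM with oxycodone and 312, 358 and 403 CPM with saline. No ventral library reached the dorsal range, and every oxycodone ventral library lay above every saline ventral library. The saline averages were 1288 ± 29.5 CPM in dorsal striatum and 355 ± 35.1 CPM in ventral striatum (SD, n = 5 and 6), a log2 difference of 1.86 (SE 0.12), and 1.83 (SE 0.07) without the sixth library.

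Of the ventral genes, Calb2 was low in dorsal striatum, with 1.78, 7.59, 3.31, 2.80 and 5.45 CPM in oxycodone libraries and 1.07, 7.04, 2.23, 4.79 and 4.77 CPM in saline libraries. These rest on 12 to 132 counts per library, and their coefficient of variation was 55.6% with oxycodone and 59.2% with saline. Oxycodone ventral libraries held 3.12, 16.2 and 22.7 CPM (lowest, median and highest) and saline ventral libraries 9.81, 24.5 and 31.6 CPM. The sixth library was the lowest in both ventral groups, and without both of them the groups of dorsal and ventral libraries did not overlap. In saline libraries the dorsal mean was 6.56-fold lower than the ventral mean without the sixth library and 5.88-fold lower with it.

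Hap1 had 95.2, 113, 105, 102 and 102 CPM in oxycodone dorsal libraries and 107, 98.3, 87.4, 119 and 104 CPM in saline dorsal libraries. Ventral values ran from 102 over a median of 289 to 459 CPM with oxycodone and from 92.7 over a median of 426 to 479 CPM with saline. The minima are the sixth libraries, both inside the dorsal range. The other 5 saline ventral libraries lay close together, at 435 ± 26.6 CPM (SD), while the other 5 oxycodone ventral libraries spread over 265 to 459 CPM, at 329 ± 78.3 CPM (SD).

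Wfs1 had 107, 148, 133, 152 and 180 CPM in oxycodone dorsal libraries and 128, 106, 132, 123 and 114 CPM in saline dorsal libraries. In ventral striatum the lowest, median and highest values were 138, 312 and 476 CPM with oxycodone and 128, 292 and 431 CPM with saline. Both sixth libraries lay inside the dorsal range and the other 10 ventral libraries above it. The log2 difference in saline libraries, dorsal minus ventral, was -1.34 (SE 0.27), and -1.51 (SE 0.16) without the sixth library.

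Crym differed least between the regions of the 10 members. It had 130, 167, 159, 181 and 180 CPM in oxycodone dorsal libraries and 137, 134, 141, 166 and 152 CPM in saline dorsal libraries. Ventral values ran from 76.0 over a median of 194 to 236 CPM with oxycodone and from 42.4 over a median of 173 to 236 CPM with saline. The regions overlapped in both treatments, also without the sixth libraries, where oxycodone ventral libraries reached down to 136 CPM and saline ventral libraries to 153 CPM. The log2 difference, dorsal minus ventral, was -0.07 (SE 0.30) in oxycodone libraries and -0.17 (SE 0.30) in saline libraries, and -0.25 (SE 0.13) and -0.38 (SE 0.13) without the sixth libraries.

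Arhgap36 was close to the detection limit in dorsal striatum, with 0.334, 0.805, 0.575, 0.287 and 0.861 CPM in oxycodone libraries and 0.71, 0.176, 1.15, 1.09 and 0.374 CPM in saline libraries. These are 2 to 24 counts per library, all of them even numbers. Whether both mates of a pair were counted is not given in the sources used here, so the number of fragments may be smaller. Oxycodone ventral libraries held 1.83, 6.88 and 15.7 CPM (lowest, median and highest), and saline ventral libraries 0.189, 10.6 and 17.9 CPM. The sixth libraries gave both minima, with 17 counts in the oxycodone and 2 counts in the saline library. It was the member with the widest relative difference between regions, with a dorsal mean 17.6-fold lower than the ventral one in saline libraries without the sixth and 14.7-fold lower with it.

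Zcchc12 had 75.0, 87.2, 76.9, 84.9 and 80.5 CPM in oxycodone dorsal libraries and 106, 69.1, 79.9, 93.0 and 102 CPM in saline dorsal libraries. Oxycodone ventral libraries held 83.8, 150 and 221 CPM (lowest, median and highest), and saline ventral libraries 24.0, 229 and 239 CPM. The sixth library was the lowest of each. The other 5 saline ventral libraries held 226 to 239 CPM, a coefficient of variation of 2.43%, while the other 5 oxycodone ventral libraries held 124 to 221 CPM, with a coefficient of variation of 25.6%.

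Over all libraries, 5 of the 10 members had dorsal and ventral groups that did not overlap in saline libraries (background 29.7% of genes) and 3 of 10 in oxycodone libraries (background 27.2%). Without the sixth libraries this held for 9 of 10 members in each treatment, with Crym the exception, at backgrounds of 38.2% in saline and 33.2% in oxycodone libraries. The members were chosen on this difference, so nothing is read from these counts.

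Levels per kilobase of exon allow genes to be ordered within a region. In saline dorsal libraries Hpca came first at 441 ± 10.1 CPM per kb (SD, n = 5 for each gene), about an order of magnitude above the next. Crym at 43.0 ± 3.84, Zcchc12 at 39.4 ± 6.67, Coch at 38.1 ± 3.96, Gpr155 at 37.2 ± 4.58, Reln at 35.8 ± 3.92 and Wfs1 at 31.9 ± 2.82 CPM per kb followed. Each from Crym to Gpr155 lay inside the spread of the gene after it, while Reln lay above that of Wfs1. Hap1 at 27.4 ± 3.04, Calb2 at 2.28 ± 1.35 and Arhgap36 at 0.205 ± 0.126 CPM per kb closed the order. Crym, listed as a ventral gene, was no lower there than Coch, Gpr155 and Reln.

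In saline ventral libraries other than the sixth, Hpca was again first at 124 ± 12.2 CPM per kb (SD, n = 5 for each gene). Hap1 at 115 ± 7.08 CPM per kb lay inside its spread. Zcchc12 came next at 102 ± 2.47 CPM per kb, inside the spread of Wfs1, and Wfs1 followed at 90.3 ± 20 and Crym at 55.6 ± 10.4 CPM per kb. Calb2 at 15.0 ± 2.72 and Gpr155 at 14.1 ± 0.886 CPM per kb could not be ordered by their spread. Reln had 8.43 ± 0.860, Coch 4.04 ± 0.212 and Arhgap36 3.60 ± 0.959 CPM per kb, with the last pair inside its spread. Hpca, listed as a dorsal gene, therefore headed the order in both regions.

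Averaging log2 CPM within each list gives a library 1 dorsal and 1 ventral level. The 5 oxycodone dorsal libraries had dorsal levels of 8.44 to 8.78 and ventral levels of 4.42 to 5.13, and the 5 saline dorsal libraries 8.57 to 8.88 and 4.61 to 5.07 (mean log2 CPM). Of the ventral libraries other than the sixth, oxycodone libraries had dorsal levels of 6.59 to 6.97 and ventral levels of 6.20 to 6.91, and saline libraries 6.48 to 6.66 and 6.73 to 6.95. The dorsal level minus the ventral level was 3.31 to 4.30 in oxycodone dorsal libraries and 3.63 to 4.11 in saline dorsal libraries. In oxycodone ventral replicates 1 to 5 it was 0.53, -0.28, 0.14, 0.39 and 0.61, and in saline ventral replicates 1 to 5 -0.30, -0.18, -0.20, -0.18 and -0.30. Of these 5 oxycodone libraries, 4 lay above all 5 saline ones, and oxycodone replicate 2 lay among them.

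**Figure D2:**
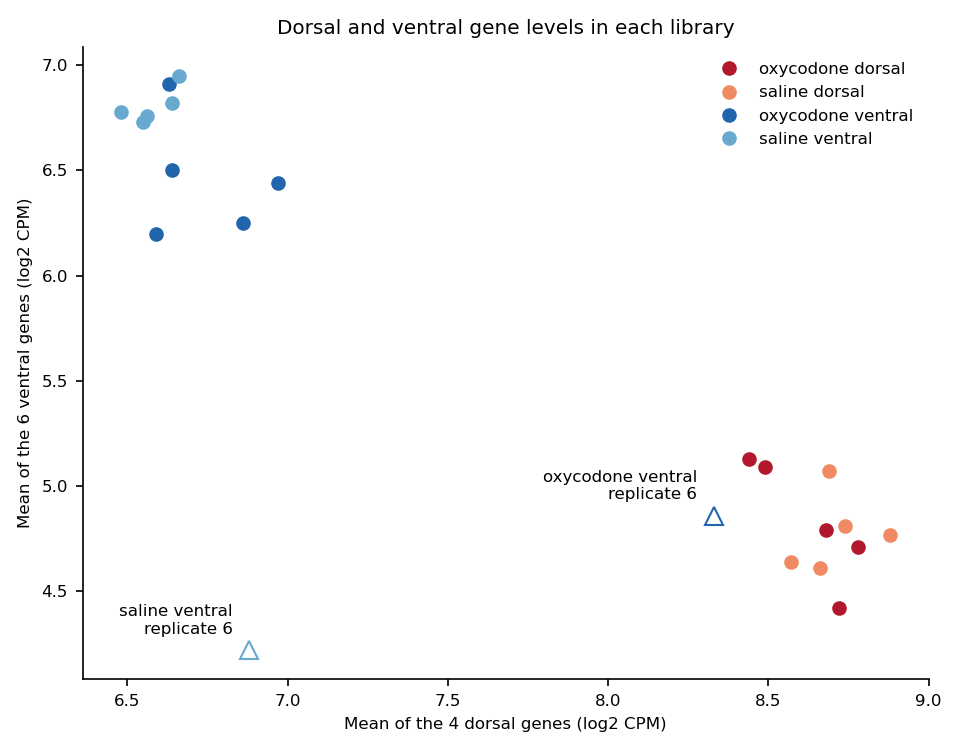
Mean level of the 6 ventral genes (vertical axis, log2 CPM) against that of the 4 dorsal genes (horizontal axis, log2 CPM), 1 point per library, coloured by group, with open triangles for the sixth ventral libraries. Oxycodone ventral replicate 6 (8.33 and 4.86) lies beside the dorsal libraries, and saline ventral replicate 6 (6.88 and 4.22) lies apart from all other libraries.

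The sixth libraries differed from the other 10 ventral libraries in different ways. In oxycodone ventral replicate 6, all 4 dorsal genes were above and all 6 ventral genes below the range of the other 10 ventral libraries. Reln and Gpr155 of the dorsal genes and Calb2, Hap1, Wfs1 and Zcchc12 of the ventral genes fell inside the range of the 10 dorsal libraries. Hpca, at 758 CPM, lay between the ranges of the regions, and the 20 medium spiny neuron genes averaged 8.61 log2 CPM, against 8.54 to 8.70 in oxycodone dorsal and 7.60 to 7.99 in the other oxycodone ventral libraries. Coch, at 89.2 CPM, lay just below the dorsal range, Arhgap36, at 1.83 CPM, between the ranges, and Crym, at 76.0 CPM, below both. In this library 6 of the 10 members lay inside the dorsal range and none inside that of the other ventral libraries. The share of all genes in such positions is not given here for either sixth library. The members were also listed with their regional levels in view, so nothing is read from these counts.

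Saline ventral replicate 6 also had all 6 ventral genes below the other 10 ventral libraries. The dorsal genes differed among themselves there, with Reln at 228 CPM and Hpca at 325 CPM inside the range of the other 10 ventral libraries, Coch at 41.4 CPM above it and Gpr155 at 62.4 CPM below it. Medium spiny neuron genes averaged 4.60 log2 CPM there, against 7.52 to 7.87 in the other saline ventral libraries. Cortical glutamatergic neuron genes averaged 6.69 log2 CPM, against 3.26 to 4.53 in those libraries. Of these 2 lists no gene was at 0 in either sixth library, and of the 14 measured genes of septal, preoptic and pallidal neurons 2 were at 0 in the sixth saline library.

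**Figure D3:**
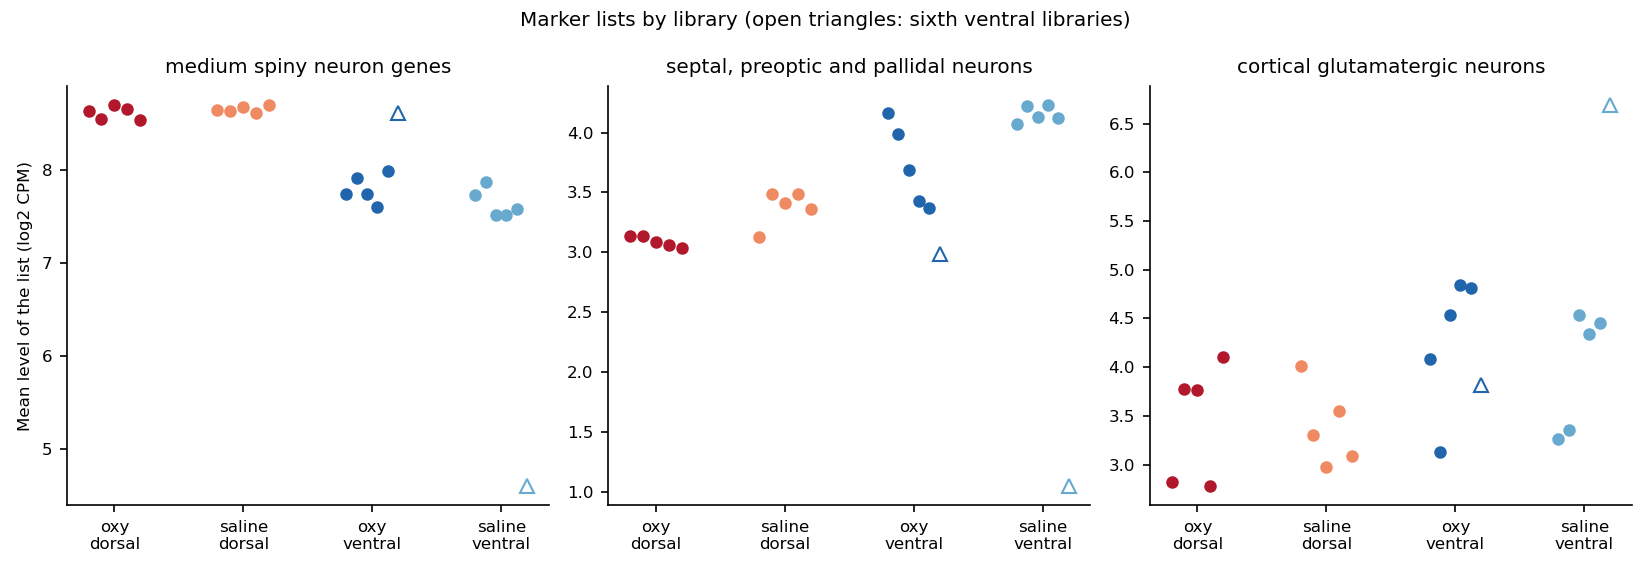
Mean log2 CPM of 3 marker lists (20 medium spiny neuron genes, 14 genes of septal, preoptic and pallidal neurons, and 10 of cortical glutamatergic neurons) in each library by group, with open triangles for the sixth ventral libraries. The sixth oxycodone library reaches 8.61 for medium spiny neuron genes, at the dorsal level, and the sixth saline library lies at 4.60 and 1.05 on the first 2 lists and reaches 6.69 on the third.

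Wfs1 and Crym varied together among ventral libraries. The highest Wfs1 values, 476 CPM in oxycodone replicate 2 and 417 and 431 CPM in saline replicates 1 and 2, were in the 3 libraries that also had the highest Crym, at 236 CPM in oxycodone replicate 2 and 236 and 209 CPM in saline replicates 1 and 2. Calb2 ran differently in saline libraries, with 20.3 and 22.2 CPM in replicates 1 and 2 and 26.8 to 31.6 CPM in replicates 3 to 5. The same 3 libraries had the lowest cortical glutamatergic marker levels, at 3.13 log2 CPM in oxycodone replicate 2 and 3.26 and 3.35 in saline replicates 1 and 2, against 4.08 to 4.84 in the other 7 ventral libraries without the sixth. The part of these markers in the levels of Wfs1 and Crym was not tested.

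The comparison of oxycodone with saline did not define the dorsal and ventral lists and was tested. Earlier results of these data were known when the members were listed, so the p values may not be independent of that choice. In dorsal striatum none of the 9 members that passed the filter on low counts passed the threshold (adjusted p below 0.05 in edgeR's quasi-likelihood test), where 30 of 14595 genes (0.206%) did. Arhgap36 was too low in dorsal striatum to be tested. At an unadjusted p below 0.05, 1 of the 9 passed, against 5.64% of all genes. It was Wfs1, which averaged 144 ± 26.6 CPM in oxycodone dorsal libraries and 121 ± 10.7 CPM in saline dorsal libraries (SD, n = 5 each), a log2 difference of 0.25 (SE 0.10, edgeR adjusted p = 0.731). Oxycodone replicate 1, at 107 CPM, was among the lowest of all 10 libraries.

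For the 4 dorsal genes the dorsal striatum gave narrow estimates around 0. The log2 difference, oxycodone minus saline, was -0.10 (SE 0.09) for Reln, -0.08 (SE 0.10) for Coch, -0.09 (SE 0.09) for Gpr155 and -0.07 (SE 0.06) for Hpca. Among the ventral genes, Crym had 0.16 (SE 0.09), Zcchc12 -0.15 (SE 0.11), Hap1 0.01 (SE 0.09) and the low Calb2 0.07 (SE 0.45). All 10 members had overlapping groups there, where 1.30% of genes did not overlap. Titles of 5 of the 10 dorsal libraries carry a suffix P, whose meaning the labels do not give, and Wfs1 had a difference of 0.28 among libraries with it and 0.14 among those without it.

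**Figure D4:**
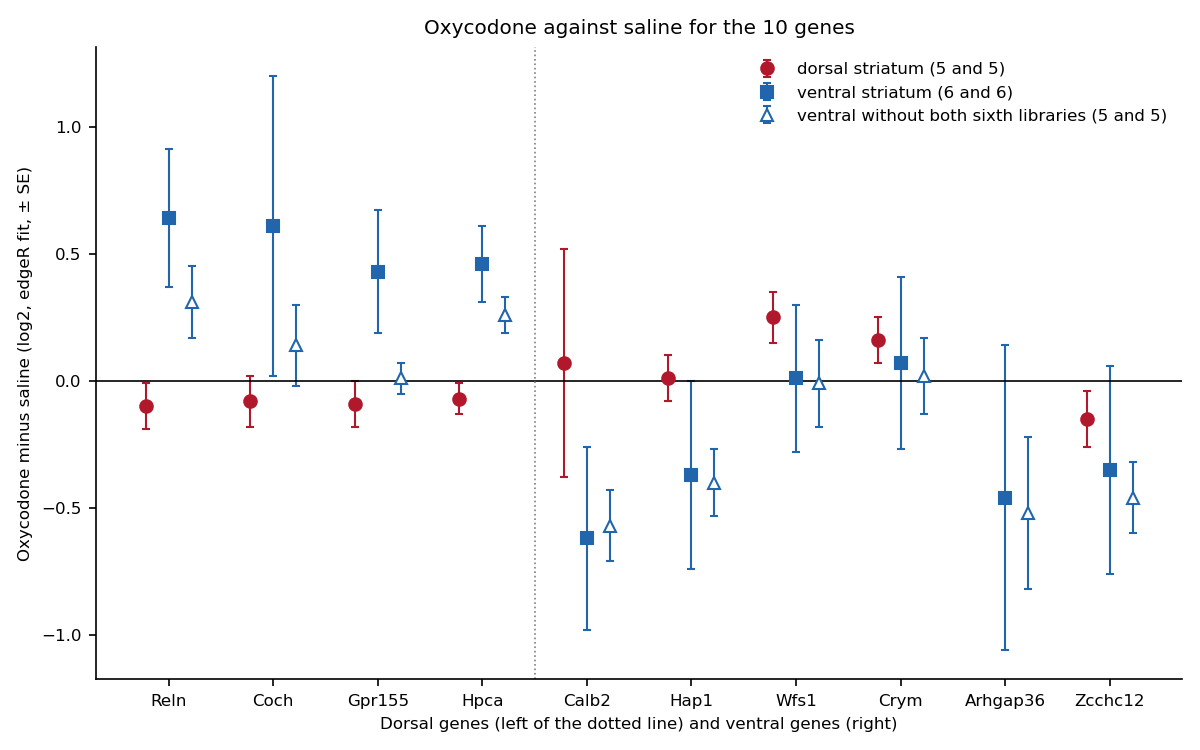
Oxycodone minus saline (log2, edgeR fit, ± SE) for the 10 genes in dorsal striatum (filled circles, 5 and 5 libraries), ventral striatum (squares, 6 and 6) and ventral striatum without both sixth libraries (open triangles, 5 and 5). Arhgap36 was not tested in dorsal striatum. Without the sixth libraries Hpca stays above 0 (0.26) with a smaller error, Calb2, Hap1 and Zcchc12 lie below 0 (-0.57, -0.40 and -0.46), and Gpr155 moves to 0.01. No gene passed the threshold.

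In ventral striatum none of the 10 members passed the threshold in edgeR, DESeq2 or limma-voom, and edgeR called 0 of 14116 genes (0.0%). At an unadjusted p below 0.05, 2 of the 10 members passed, against 9.13% of all genes (1289). DESeq2 called 38 genes and limma-voom 61, none of them a member. All 4 dorsal genes had positive differences, with a median of 0.54, and 4 of the 6 ventral genes negative ones, with a median of -0.36, where the median of all genes was 0. Without both sixth libraries the median of the dorsal genes was 0.20, with all 4 positive, and that of the ventral genes -0.43, with 5 of 6 negative.

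Hpca averaged 486 ± 135 CPM in oxycodone ventral libraries and 355 ± 35.1 CPM in saline ventral libraries (SD, n = 6 each), a log2 difference of 0.46 (SE 0.15, unadjusted p = 0.0072, edgeR adjusted p = 0.425). All 6 oxycodone libraries were above all 6 saline libraries, which 0.312% of genes were in this direction. Without both sixth libraries the averages were 432 ± 20.3 CPM with oxycodone and 362 ± 35.6 CPM with saline (SD, n = 5 each), the difference 0.26 (SE 0.07, edgeR adjusted p = 0.256), and the groups still did not overlap (0.964% of genes). In lane 1 alone, with 4 libraries a group and neither sixth library, the difference was 0.19 (edgeR adjusted p = 0.798).

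Reln had a log2 difference of 0.64 (SE 0.27, unadjusted p = 0.0347, edgeR adjusted p = 0.514) over all ventral libraries and 0.31 (SE 0.14, edgeR adjusted p = 0.483) without both sixth libraries. Oxycodone replicates 1, 2, 3, 4 and 5 held 307, 240, 217, 173 and 301 CPM, and saline replicates 1 to 5 held 230, 202, 195, 173 and 199 CPM. The groups overlapped, with 173 CPM the lowest value of each and oxycodone replicate 3, at 217 CPM, also inside the saline range. The differences of Gpr155, 0.43 (SE 0.24), and Coch, 0.61 (SE 0.59), were 0.01 (SE 0.06) and 0.14 (SE 0.16) without both sixth libraries. For these 2 genes the difference was thus smaller than its error without the sixth libraries, and without the sixth oxycodone library alone Coch had -0.36.

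All 6 ventral genes had smaller errors without both sixth libraries. Calb2 had a difference of -0.62 (SE 0.36, edgeR adjusted p = 0.609) over all ventral libraries and -0.57 (SE 0.14, unadjusted p = 0.00122, edgeR adjusted p = 0.212) without them. Oxycodone replicates 1 to 5 held 22.7, 16.6, 17.8, 15.8 and 14.3 CPM of Calb2, and saline replicates 1 to 5 held 20.3, 22.2, 31.6, 29.4 and 26.8 CPM. Oxycodone replicate 1 alone kept the groups from separating. In lane 1 alone the Calb2 difference was -0.50 (edgeR adjusted p = 0.760).

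Zcchc12 had a difference of -0.35 (SE 0.41, edgeR adjusted p = 0.810) over all ventral libraries and -0.46 (SE 0.14, unadjusted p = 0.0063, edgeR adjusted p = 0.313) without both sixth libraries. Oxycodone replicates 1 to 5 held 197, 221, 174, 124 and 125 CPM, all below the saline replicates 1 to 5 with 230, 226, 228, 239 and 237 CPM. Of all genes, 1.22% did not overlap in this direction among these 10 libraries. Hap1 had differences of -0.37 (SE 0.37) and -0.40 (SE 0.13, unadjusted p = 0.00795, edgeR adjusted p = 0.320), with 265, 459, 343, 278 and 301 CPM in oxycodone replicates 1 to 5 and 431, 421, 409, 433 and 479 CPM in saline replicates 1 to 5. Oxycodone replicate 2 was again like the saline libraries.

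Arhgap36 had a difference of -0.46 (SE 0.60) over all ventral libraries and -0.52 (SE 0.30) without both sixth libraries, with oxycodone replicates 4 and 5 the lowest of those libraries at 4.60 and 5.62 CPM. Wfs1 had 0.01 (SE 0.29) and -0.01 (SE 0.17), and Crym 0.07 (SE 0.34) and 0.02 (SE 0.15). These 2 genes thus stayed near 0 where Calb2, Hap1 and Zcchc12 had negative values, a contrast that was not tested. In all, 4 of the 10 members had an unadjusted p below 0.05 without both sixth libraries, namely Hpca, Calb2, Hap1 and Zcchc12, against 10.4% of all genes, and 0 of 10 passed the threshold, as did 0 of 14102 genes (0.0%).

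**Figure D5:**
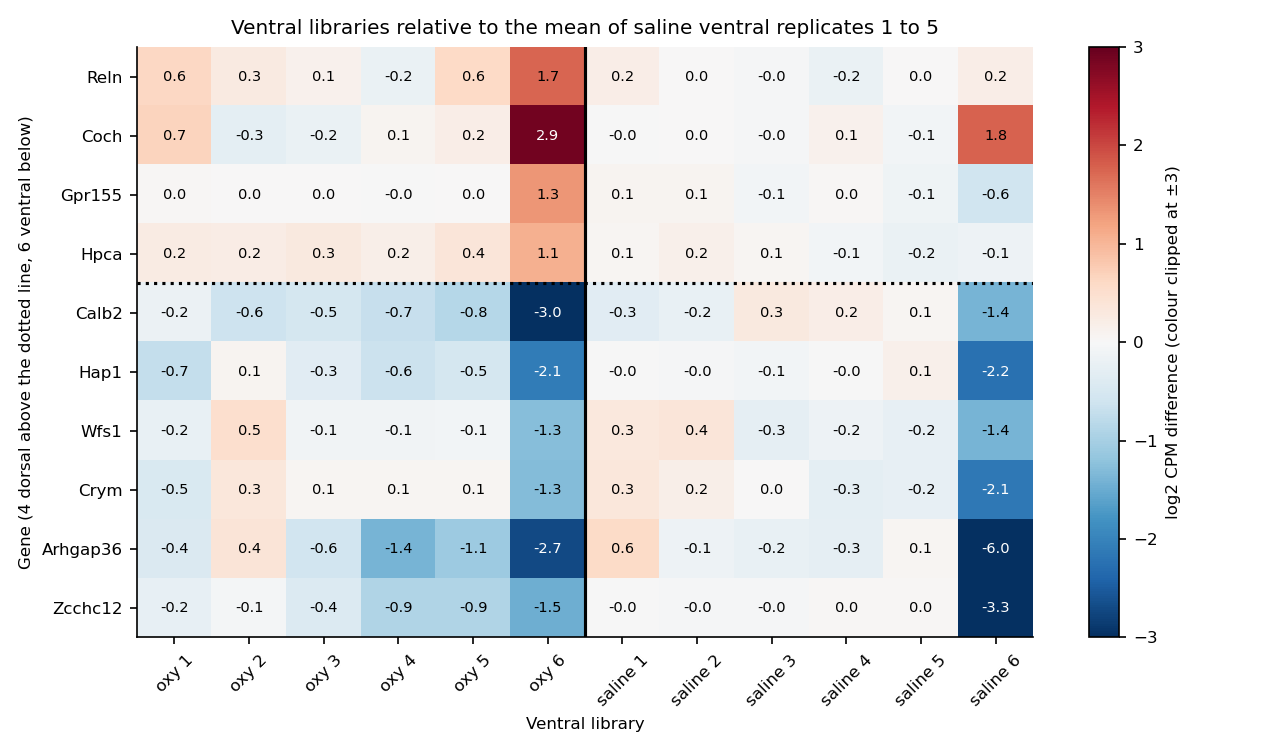
log2 CPM of the 10 genes in each of the 12 ventral libraries, relative to the mean of saline replicates 1 to 5, with oxycodone libraries left and saline libraries right of the solid line (colour and numbers, colour clipped at ±3). Hpca is positive in all 6 oxycodone libraries, Zcchc12 reaches -0.90 and -0.89 in oxycodone replicates 4 and 5, and both sixth columns are strongly negative for all 6 ventral genes.

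Markers of neighbouring regions also differed among the ventral libraries. The 14 measured genes of septal, preoptic and pallidal neurons averaged 4.16, 3.99, 3.69, 3.43 and 3.37 log2 CPM in oxycodone ventral replicates 1 to 5 and 4.07, 4.22, 4.13, 4.23 and 4.12 in saline ventral replicates 1 to 5. Their summed level was 279 to 453 CPM in those oxycodone libraries and 456 to 534 CPM in those saline libraries, and none was at 0 in a whole group. Oxycodone replicates 4 and 5, the lowest on this list, were also the lowest of these libraries for Zcchc12 and Arhgap36. Oxycodone replicate 1, within the saline range on this list, was the lowest of oxycodone replicates 1 to 5 for Hap1 (265 CPM), Wfs1 (286 CPM) and Crym (136 CPM). Medium spiny neuron genes averaged 7.60 to 7.99 log2 CPM with oxycodone and 7.52 to 7.87 with saline in the same libraries, so those groups overlapped. Of these 20 genes, 20 had positive oxycodone differences over all ventral libraries (6927 of 14116 genes), with a median of 0.57. Without both sixth libraries 19 did (6813 of 14102 genes), with a median of 0.17, and none passed the threshold in edgeR either way. The effect of oxycodone, dorsal minus ventral, was negative for all 20 (7294 of 14938 genes), with a median of -0.57, and of -0.21 without both sixth libraries. The 20 genes share libraries, so they are not independent observations. The part of these markers in the members' differences was not tested.

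Other genes of the same axis gave few calls. Of 12 other dorsal striatum genes, 0 passed the threshold in ventral striatum, with a median difference of 0.38 over all libraries and 0.09 without both sixth libraries, and Kcnip2, a potassium channel subunit, had the lowest unadjusted p over all libraries (0.43, SE 0.16, edgeR adjusted p = 0.487), with 0.22 (SE 0.10) without both sixth. Of 15 other ventral striatum genes, 0 passed, with medians of -0.13 and -0.15. Tac2, a tachykinin precursor, had -0.78 (SE 0.33, edgeR adjusted p = 0.514), and -0.60 without both sixth. Among these 15 genes without both sixth libraries, 14 were negative (7289 of 14102 genes). Of the 15, 5 had an unadjusted p below 0.05 in edgeR, against 10.4% of all genes. The lowest were Tmem130 (-0.39, SE 0.11, edgeR adjusted p = 0.245) and Gabrg1 (-0.43, SE 0.12, edgeR adjusted p = 0.276), while Oprk1 was positive (0.23, SE 0.10). Of the 12 other dorsal genes, 10 were then positive and 2 had such a p. In dorsal striatum 1 of the 12 other dorsal genes fell with oxycodone, Sh3rf2, a scaffold and ubiquitin ligase gene (-0.46, SE 0.10, edgeR adjusted p = 0.0475), and 0 of the 14 tested other ventral genes passed. The Sh3rf2 call was lost in 15 of 22 alternatives, with an adjusted p of 0.0646 to 0.181 when oxycodone replicate 1, 2, 4 or 5 or saline replicate 1, 2, 3 or 5 was left out.

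The difference of the oxycodone effect between regions was tested over all 22 libraries. None of the 10 members and 0 of 14938 genes (0.0%) passed the threshold in edgeR, and at an unadjusted p below 0.05 2 of 10 members and 4.51% of genes (674) passed. The effect on Hpca, dorsal minus ventral, was -0.52 (SE 0.16, unadjusted p = 0.00395, edgeR adjusted p = 0.981), and that on Reln -0.73 (SE 0.33, edgeR adjusted p = 0.981). All 4 dorsal genes had negative values and all 6 ventral genes positive ones, and the medians were -0.60 and 0.23 where that of all genes was 0.01. The sign of Coch, Crym and Arhgap36 changed when a single library was left out, with Coch at 0.28 without the sixth oxycodone ventral library. Without both sixth libraries, 0 of 14891 genes (0.0%) passed, and 3 of 10 members had an unadjusted p below 0.05, against 4.1% of genes. These were Hpca at -0.34 (SE 0.09), Reln at -0.42 (SE 0.18) and Hap1 at 0.39 (SE 0.15), each with an edgeR adjusted p of 1. The medians were then -0.29 for the dorsal and 0.27 for the ventral genes.

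Genes that work with the members were counted by list. For Reln, 14 genes of reelin signalling, among them the receptor gene Lrp8, gave 0 calls in either region, with medians of 0 in dorsal and -0.01 in ventral striatum. For Hpca and Calb2, 14 other calcium sensors and buffers gave 0 calls, with Necab1 at -0.20 (SE 0.11, edgeR adjusted p = 0.917) in dorsal and 0.20 (SE 0.06, edgeR adjusted p = 0.393) in ventral striatum. For Gpr155, 12 genes of lysosomal cholesterol sensing and mTORC1 gave 0 calls, with medians of -0.01 and -0.03. These lists stayed near the median of all genes, -0.01 in dorsal and 0 in ventral striatum.

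Among lists tied to the ventral genes, the 16 genes of the endoplasmic reticulum stress response, to which Wfs1 is linked, gave 0 calls in edgeR, with a median of 0.17 in ventral striatum and 13 of 16 positive, and 0.12 and 15 of 16 without both sixth libraries. Their lowest adjusted p values in edgeR belonged to Xbp1, which codes for a regulator of that response (0.56, SE 0.09, adjusted p = 0.237), the chaperone gene Hspa5 (0.74, SE 0.12, adjusted p = 0.237) and the disulfide isomerase gene Pdia4 (0.66, SE 0.12, adjusted p = 0.262). These 3 genes passed the threshold in DESeq2 (adjusted p of 0.00022, 8.84e-05 and 0.000856) and in limma-voom (0.0176, 0.02 and 0.0238). Without both sixth libraries their edgeR differences were 0.49, 0.64 and 0.55 (adjusted p of 0.104, 0.132 and 0.132). In dorsal striatum 12 of the 16 genes were positive and 4 negative, with a median of 0.07. Xbp1 had 0.36 there (SE 0.12, edgeR adjusted p = 0.438) and Atf4, also of this list, -0.28 (SE 0.09, edgeR adjusted p = 0.326). Of all genes, 6927 of 14116 were positive in ventral and 6996 of 14595 in dorsal striatum. Hspa5 held 362 to 584 CPM in oxycodone ventral libraries and 244 to 326 CPM in saline ventral libraries, sixth libraries included, with no overlap (0.312% of genes in this direction), while Wfs1 overlapped. Of 12 huntingtin-associated protein partners, 12 genes of thyroid hormone transport and response, 11 of protein kinase A and hedgehog signalling and 12 of BMP signalling, 0 passed in either region, with ventral medians of 0, 0.04, -0.08 and 0.04, and of 0.06, 0.03, -0.13 and 0.03 without both sixth libraries.

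The genes most like each list across libraries were found after centring log2 CPM on group means, as Spearman's rho over 22 libraries. Both sides of each value come from the same libraries and so carry the same differences in depth and dissection. For the dorsal genes these included Ano3 (0.96), a membrane protein of the anoctamin family, Ppp3ca (0.95), the catalytic subunit of calcineurin, Prkcb (0.91), a protein kinase C, and Arpp19 (0.89), an inhibitor of protein phosphatase 2A. Without both sixth libraries the values were 0.89, 0.90, 0.76 and 0.82 over 20 libraries. For the ventral genes they were Arhgap6 (0.93), Peg10 (0.90), an imprinted gene on the list of other ventral genes, Cacna2d2 (0.86), a calcium channel subunit, Ntn1 (0.86), the guidance cue netrin-1, and Pdyn (0.85), the dynorphin precursor. Without both sixth libraries these were 0.77, 0.75, 0.57, 0.52 and 0.50. The values of the ventral side dropped further without the sixth libraries than those of the dorsal side.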

How the data were processed

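RNA from 22 striatal samples was measured with a stranded total RNA kit that removes ribosomal RNA, per the labels' protocols. The authors deposited raw counts per Ensembl gene. The submitters' processing notes name CASAVA 1.8.2, STAR 2.3 and featureCounts, and the builds mm10, GRCm38 and mm9 without roles, and the strand setting and the counting of mates are not given in the sources used here. Of counts below 200, 60.8% to 67.5% were even in dorsal and 46.4% to 47.5% in ventral libraries. Of 23119 genes, 22205 (96.0%) were matched to GENCODE M21. All values were whole numbers, and the closest pair of libraries of a group differed by 2.88 in chi-square per degree of freedom, so none was merged.

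Samples were grouped by region and treatment from the labels. Oxycodone was tested against saline in each region, and as a difference between regions over all 22 libraries, with edgeR 4.0.16 (robust quasi-likelihood, TMM, filterByExpr) in R 4.3.3. P values were two-sided and adjusted over all genes tested by Benjamini-Hochberg, with a threshold of 0.05. The scripts were tested on simulated data. CPM are TMM-scaled, and list levels are means of log2 CPM with a prior count of 2. Exon length is the union of all annotated exons. Alternatives were other scaling factors, no filter, DESeq2 1.42.0, limma-voom (limma 3.58.1), lane, title suffix, summed libraries, a single fit, a replicate block and leaving out libraries. Halving the dorsal counts was added after seeing the data.

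The members and the gene lists were chosen with earlier results of these data known. All 10 members are named; of each list up to 3 genes with the lowest unadjusted p could be named, of which some are printed. Markers named outside this rule (Drd1, Drd2, Ppp1r1b, Slc17a7 and Ttr) were chosen after their values were seen. Errors given as SE come from the edgeR fit and include the spread between libraries, and SD is that between the libraries of a group.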

Additional observations from a re-analysis of the deposited data

Results flagged for a closer look

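A member was looked at again where 1 library of a group lay far from the rest by Dixon's test, and 9 of 40 groups did. Chance gives about 1 in 20 for independent groups, but the genes share libraries, so these 40 are not independent. Of the 9, 8 were sixth ventral libraries. Oxycodone ventral replicate 6 was the highest of its group for Reln (663 CPM, next 307), Coch (89.2 CPM, next 19.3), Gpr155 (236 CPM, next 96.7) and Hpca (758 CPM, next 460). Saline ventral replicate 6 was the highest of its group for Coch (41.4 CPM, next 13.2) and the lowest for Gpr155 (62.4 CPM, next 86.6), Hap1 (92.7 CPM, next 409) and Zcchc12 (24.0 CPM, next 226). The ninth was Hpca in saline dorsal replicate 3 (1339 CPM, next 1283), a small step in a group of narrow spread.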

How the results depend on the processing

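No member passed the threshold in any comparison under any alternative run, and the lowest adjusted p of a member was 0.226 in dorsal striatum (Wfs1), 0.0916 in ventral striatum (Hpca, limma-voom) and 0.712 for the difference between regions. Members' values, taken unrounded, changed sign in 13 cases and kept their sign in 185 in dorsal striatum, in 13 and 207 in ventral striatum, and in 9 and 311 for the difference between regions. The count of all genes called in dorsal striatum was 86 with DESeq2, 17 in libraries without title suffix P, 1 in those with it and 5 in a single fit of all 22 libraries, and 1 to 63 when a replicate was left out (1 without saline replicate 5, 63 without oxycodone replicate 3). In ventral striatum DESeq2 called 38 genes and limma-voom 61, against 0 in edgeR. Title numbers found in both regions had the same treatment in both, and whether they mark the same mouse is not known. Of 8 pairs, with correlations of -0.08 to 0.31, 1 was over 0.1. Low correlations between different tissues cannot settle whether libraries came from the same mouse. With the replicate block by title number 0 genes and 0 members passed. The difference between regions in the dorsal minus ventral gene level, 2.98 in oxycodone and 3.68 in saline libraries (log2), ran from 2.77 to 3.52 and from 3.57 to 4.16 when a replicate was left out. Low counts limit Arhgap36 and Calb2 in dorsal striatum.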
